A study of Mus musculus with 12 samples.

Results

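Hoxb13-only promoter peaks beside start sites were 4204 of the 22284 peaks (18.9%) in the Hoxb13 list. They were chosen by 3 deposited properties of each peak, as the peaks that the authors had placed in the promoter class, that did not cover the transcription start site assigned to them, and that shared not 1 bp with any of the 30534 Meis1 peaks. Of these members 1459 lay upstream of the start site, before the first base of the transcript, and 2745 downstream. Of the downstream members 37 lay wholly past the end of a short transcript, and the others lay at least partly inside the assigned transcript. The members made up 46.8% of the 8980 Hoxb13 promoter peaks. Of 4532 peaks beside a start site, 328 that overlapped a Meis1 peak were left out. A further 3977 Hoxb13-only promoter peaks covered the start site itself, and these on-start peaks served for comparison.

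Binding of both factors had been mapped by chromatin immunoprecipitation and sequencing in heart ventricles on postnatal day 15 in CD-1 mice, which are outbred, with no genetic change or treatment named in the labels. The 12 libraries formed 4 groups of 3, namely Meis1 precipitates, Hoxb13 precipitates and the input chromatin of each. The peak lists were 1 per factor, named for all 3 libraries of that factor, with no value per library, so no error between hearts can be given and the depth of each library is unknown. Per the labels' protocols 3 hearts served both antibodies, each taking an equal portion of the chromatin, although the replicate numbers differ between the factors. Whole ventricles hold cardiomyocytes together with fibroblasts, endothelial and other cells, so a peak cannot be assigned to a cell type.

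Hoxb13 is a posterior Hox protein, best known from the prostate and the tail end of the embryo, and Meis1 is a homeobox protein of the TALE class that binds DNA together with Hox proteins. In the mouse heart both are known to act on the withdrawal of cardiomyocytes from the cell cycle after birth. The stretch just before a start site holds the elements to which general and tissue-specific factors bind, while the stretch just after it is where RNA polymerase II pauses and where the first nucleosomes are placed. Many promoters of broadly expressed genes lie in CpG islands and carry GC boxes and CCAAT boxes, whereas many promoters of strictly tissue-specific genes lack CpG islands.

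For some upstream members the DNA under the summit could be read from RefSeq promoter windows of GRCm38.p6, the build of the peak lists, which cover 250 bases before and 50 after a start site. A window of the gene held the summit of 206 upstream members (14.1%) and 37 downstream members (1.35%). The 5 strongest of these upstream members were at Tfeb, Arntl, Dapk3, Hmgcs1 and Bnip3. The sequences below show what lies under these strong peaks, 5′ to 3′ on the strand of the gene, from the start of the window or the peak to the peak's edge nearest the start site. Capitals mark the motifs searched for: the CCAAT box bound by NF-Y (CCAAT, or ATTGG on the other strand), the GC box bound by Sp1-family factors (GGGCGG or CCGCCC), the cAMP response element (TGACGTCA), the E-box (CACGTG) and the core Meis site (TGACAG, or CTGTCA on the other strand). Tfeb, a master factor for lysosome genes, has its stretch at chr17:47737681-47737841 (plus strand), Arntl, the circadian clock factor also called Bmal1, at chr7:113207215-113207426 (plus), and Dapk3, a kinase of the contractile apparatus, at chr10:81182757-81182936 (plus). Hmgcs1, an enzyme of cholesterol synthesis, has it at chr13:119690101-119690224 (plus) and Bnip3, a hypoxia-induced protein of mitochondrial turnover, at chr7:138909526-138909724 (minus).
Tfeb: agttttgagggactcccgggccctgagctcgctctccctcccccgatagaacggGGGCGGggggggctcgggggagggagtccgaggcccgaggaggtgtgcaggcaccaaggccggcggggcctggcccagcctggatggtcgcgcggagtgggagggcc
Arntl: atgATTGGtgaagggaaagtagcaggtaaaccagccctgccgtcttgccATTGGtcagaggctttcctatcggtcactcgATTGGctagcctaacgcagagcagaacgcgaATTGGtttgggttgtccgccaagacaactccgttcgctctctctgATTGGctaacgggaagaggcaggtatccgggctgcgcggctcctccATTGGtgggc
Dapk3: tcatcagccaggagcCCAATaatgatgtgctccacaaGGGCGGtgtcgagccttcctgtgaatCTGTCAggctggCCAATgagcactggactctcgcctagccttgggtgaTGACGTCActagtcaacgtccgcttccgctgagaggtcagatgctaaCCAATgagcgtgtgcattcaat
Hmgcs1: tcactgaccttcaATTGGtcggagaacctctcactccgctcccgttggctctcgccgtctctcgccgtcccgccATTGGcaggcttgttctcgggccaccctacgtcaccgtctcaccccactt
Bnip3: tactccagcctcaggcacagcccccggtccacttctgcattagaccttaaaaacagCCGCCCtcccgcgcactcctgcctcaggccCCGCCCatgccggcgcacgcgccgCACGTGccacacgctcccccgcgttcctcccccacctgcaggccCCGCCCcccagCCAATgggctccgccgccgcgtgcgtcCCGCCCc

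The Arntl stretch holds 6 CCAAT boxes in 212 bases, all on the strand opposite to the gene, and no GC box. Dapk3 has 3 CCAAT boxes with 1 GC box, 1 cAMP response element and 1 core Meis site, and the nearest Meis1 peak was 202 bp away. Hmgcs1 has 2 CCAAT boxes, Bnip3 has 4 GC boxes with 1 CCAAT box and 1 E-box, and Tfeb has 1 GC box only. Peak strengths, the authors' deposited signal value per peak without a stated unit, were 159 at Tfeb, 144 at Arntl, 127 at Dapk3, 125 at Hmgcs1 and 116 at Bnip3. None of the 5 stretches holds a searched Hoxb13 motif.

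Most summits on either side lie beyond the windows. To set the kinds of promoter side by side, the 100 bases before the start are shown for Rps7 (chr12:28635954-28636053, minus strand), the ribosomal protein gene of the strongest member on its list, and for Cmya5 (chr13:93144725-93144824, minus) and Myh6 (chr14:54966608-54966707, minus), which encode the Z-disc protein myospryn and the alpha myosin heavy chain. The only match to a searched motif in them is an ETS site (CCGGAAG, on the other strand CTTCCGG) before Rps7, in capitals.
Rps7: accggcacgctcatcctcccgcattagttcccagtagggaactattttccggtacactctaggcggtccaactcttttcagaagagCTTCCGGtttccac
Cmya5: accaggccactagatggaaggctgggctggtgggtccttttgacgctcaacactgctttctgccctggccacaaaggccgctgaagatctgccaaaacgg
Myh6: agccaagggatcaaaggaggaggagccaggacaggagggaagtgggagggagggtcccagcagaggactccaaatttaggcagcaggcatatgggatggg

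These 100 bases contain 6 CpG dinucleotides before Rps7, 3 before Cmya5 and 0 before Myh6, at 53.0%, 58.0% and 59.0% GC. The next ribosomal protein genes by member strength, Rpl27 and Rpl11, have 5 and 4 CpG dinucleotides there and no searched motif.

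Members were 1.88 times as frequent downstream as upstream. The upstream share was 34.7% (exact binomial 95% interval 33.3 to 36.2; intervals here and below cover counting error only). The 328 beside-start peaks that overlapped Meis1 were divided differently, with 54.0% upstream (48.4 to 59.5). Put the other way round, Meis1 overlapped 10.8% of upstream beside-start peaks (177 of 1636), 5.21% of downstream ones (151 of 2896) and 10.6% of on-start peaks (471 of 4448). Because the rule left out peaks shared with Meis1, it removed a larger share of the upstream than of the downstream peaks.

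The excess of downstream members was concentrated near the start site. Distance was taken from the start site to the nearest edge of the peak. Within 100 bp there were 385 upstream and 966 downstream members, a ratio of 2.51, and from 101 to 200 bp 298 and 649, a ratio of 2.18. Between 701 and 800 bp the sides were close to even, with 75 and 79 members. The ratio did not fall evenly with distance, as 50 and 113 members from 501 to 600 bp gave 2.26. The median distance was 215 bp upstream (95% interval of the median 203 to 228) and 157 bp downstream (149 to 164).

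**Figure D1:**
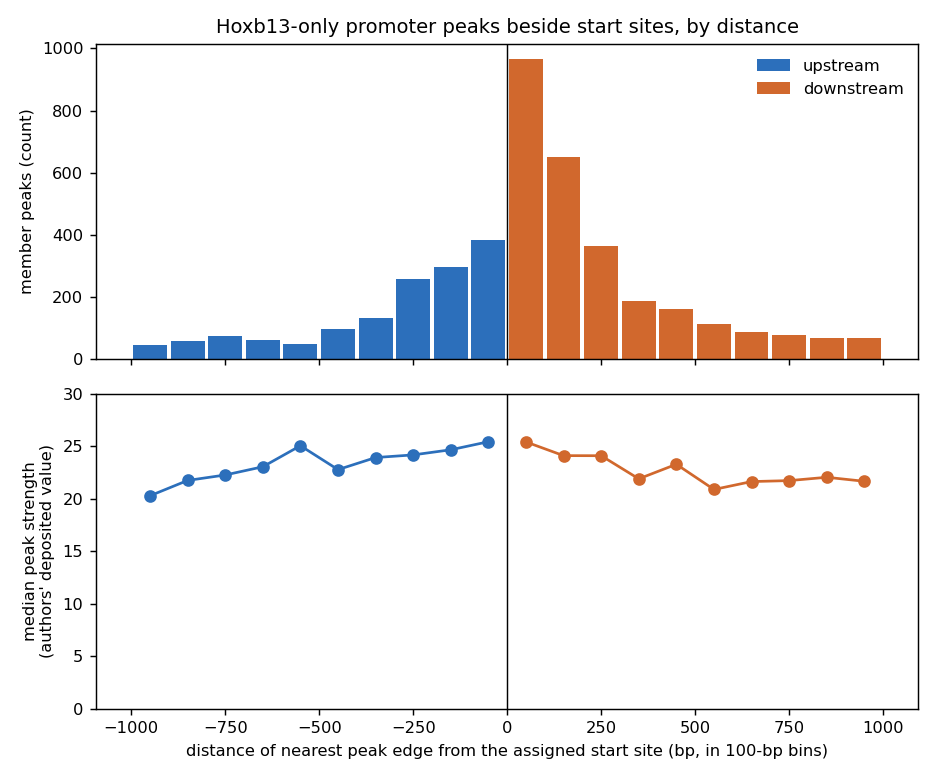
Upper panel: number of members in each 100-bp bin of distance between the nearest peak edge and the assigned start site, upstream (blue, negative) and downstream (orange). Lower panel: median peak strength of the same bins; the first downstream bin holds 966 members against 385 upstream, while the median strengths of those bins are both 25.4.

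At the limits of the rule, the members nearest to a start site lay 1 bp from it. Upstream these were Map2k2 (strength 28.3), Zfp948 (20.2) and Grk2 (21.4), and downstream Strn3 (51.6), Apcdd1 (25.04) and Cstad (20.1). Peaks at Gm15772 (91.9), Rpl23 (103), Nbas (18.02) and Zfp41 (25.6) were just outside, as the edges of these peaks only just covered a start site. The farthest members lay 999 bp away, at Abca7 upstream (21.3) and Tmem140 downstream (19.1), and the nearest peaks beyond the promoter class were at Eno3, 1003 bp upstream (28.5), and Snord99, 1005 bp downstream (24.7). The members at Gtf2i and Mesd missed a Meis1 peak by 1 and 2 bp, and peaks at Gtpbp2 and Nrbp1 were left out for sharing 2 bp with one. A Meis1 peak lay within 10 bp of 15 members (0.357%). Within 1 kb, 9.18% of the upstream and 10.5% of the downstream members had one, against 5.28% of the on-start peaks.

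Median peak strength, by contrast, was alike on the sides. The median was 23.9 upstream (23.5 to 24.4) and 24.03 downstream (23.7 to 24.3), below the 26.0 of on-start peaks (25.6 to 26.3) and above the 20.1 of Hoxb13 peaks outside promoters (20.1 to 20.2). Members in the first 100 bp had a median of 25.4 on either side, and those from 301 to 999 bp had 22.9 upstream and 22.0 downstream. Nearly all peaks in the list have the same width of 396 bp. Only 79 members (1.88%) were narrower, 41 of them upstream with a median strength of 98.95 and 38 downstream with 118. The strongest 1% of the whole Hoxb13 list, at 88.0 or more, contained 2.06% of the upstream members (30 of 1459; 1.39 to 2.92), 1.28% of the downstream members (35 of 2745; 0.890 to 1.77) and 1.03% of the on-start peaks (41 of 3977; 0.741 to 1.40). The intervals of the 2 sides overlap. Of the 65 members in that class 60 were narrow.

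Of the upstream members, Stag1, a subunit of the cohesin ring, had the highest strength, 212 at 333 bp, with a Meis1 peak 138 bp away. Smad7, an inhibitor of TGF-beta signalling, followed with 190 at 533 bp, Ago2, the slicer of RNA interference, with 183 at 212 bp, and the deubiquitinase Usp7 with 167 at 531 bp. The microRNA gene Mir3960 (163), Tfeb (159), the lysosomal channel gene Tpcn1 (157), Arntl (144), Klhl15 (139) and Klf7, a Krüppel-like factor (132), completed the 10 strongest. None of these 10 belongs to the ribosomal, sarcomere or respiratory lists used below. Their distances ran from 39 bp at Arntl to 637 bp at Klf7. The start assigned at Tpcn1 lay 28283 bp from the nearest RefSeq start.

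Of the downstream members, Rprl3, a gene for an RNA like that of ribonuclease P, had the highest value of all members, 308 at 197 bp. The ribosomal protein genes Rps7 (285 at 70 bp), Rpl27 (190 at 199 bp), Rps3a1 (189 at 97 bp) and Rpl11 (153 at 25 bp) were among the 10, as were Cct4, a subunit of the cytosolic chaperonin (154 at 70 bp), and Rnps1, a protein associated with the exon junction complex (149 at 20 bp). The others were Stx6, a syntaxin of vesicle traffic (199 at 409 bp), E2f3, an activator of S-phase genes (144 at 69 bp), and Marveld1 (139 at 11 bp). All but Rprl3, Rpl27 and Stx6 lay within 100 bp of the start. How the authors treated reads that match several places is not given in the sources used here, and ribosomal protein genes and small RNA genes have near-identical copies elsewhere, so strengths at these genes are uncertain.

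Gene groups were described by the share of their genes with a member, beside the same share over 21883 protein-coding genes. Of these genes 5.7% had an upstream member, 10.9% a downstream member, 15.1% either, 1.54% both, and 16.2% a Hoxb13-only peak on the start site. A gene was counted for both sides even where its members belonged to different start sites. The rule chose the members from these same peaks, and the lists were chosen with earlier results known, so the counts are descriptions and carry no test.

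Of 34 sarcomere and Z-disc genes 23 had a member (67.6%), with 12 upstream, 18 downstream and 7 on both sides. Only 5 of the 34 had a Hoxb13-only peak on the start site, near the background, and 19 had a member without any Hoxb13 peak on the start. The 12 upstream genes were Csrp3, Ldb3, Lmod2, Myh6, Myh7, Myl2, Myl7, Tnni3, Tnnt2, Tpm1, Ttn and Xirp1. The strongest members were at Cmya5 (55.3, 13 bp downstream), at Myl2, the ventricular myosin light chain (44.3, 36 bp downstream), and at Myh6 (42.5, 158 bp downstream). Upstream values were lower, from 17.9 at Ttn to 29.6 at Myh6, with a median of 23.0 against 27.6 downstream. All 36 peaks of this list had the full width. Over all protein-coding genes 38.2% had a Meis1 peak. In this list 29 of the 34 genes had one, so a Meis1 peak was not particular to the genes with a member. Of the 23 genes with a member, Meis1 had peaks elsewhere at 19. Examples lay 191 bp from the member at Tnnt2, the cardiac troponin T gene, and 19 bp from the upstream member at Ldb3.

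Some of these start sites lie far from the RefSeq start of the gene. Myh6 had 6 members, and only 2 of them, 640 bp upstream and 158 bp downstream, stood by the start at which its RefSeq transcript begins. The other 4 were assigned to the start of a transcript of 516 bp that begins 24120 bp away from it. The assigned starts of all 3 members at Ttn, the titin gene, were 44023 or 141158 bp from the nearest RefSeq start, and that of both members at Myl2 was 7791 bp from it. Counting only members whose assigned start lay within 100 bp of a RefSeq start left 9 upstream and 15 downstream sarcomere genes, a condition added after the data were seen. Over all members 84.3% met that condition.

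Genes of the respiratory chain and ATP synthase had members almost only on the downstream side. Of 40 genes 18 had a downstream and 2 an upstream member, against 10.9% and 5.7% of all protein-coding genes, so the downstream share (45.0%) was above the background and the upstream share (5%) near it. Of their 20 downstream peaks 13 lay within 100 bp of the start, and the median strength was 30.4. All 4 complexes and the ATP synthase on the list were represented. Uqcrfs1, the Rieske protein of complex III, had 42.0 at 81 bp, Atp5g3, a subunit c of ATP synthase, 40.1 at 52 bp, and Uqcrc1, a core protein of complex III, 39.4 at 64 bp. Succinate dehydrogenase was represented by Sdhb (38.5), Sdhc (37.6) and Sdhd (38.6), complex I by Ndufs3 (37.4), Ndufv2 (36.7), Ndufa5, Ndufs7 and Ndufa2, and cytochrome c oxidase by Cox5a (37.0), Cox6a2 (33.3), Cox8b and others. The upstream exceptions were Ndufa4 (33.5) and Cox7a1 (18.8).

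Cytosolic ribosomal protein genes had the strongest members of any list. Of 55 genes 17 had a downstream and 6 an upstream member, and 19 had a Hoxb13-only peak on the start. The 19 downstream peaks had a median strength of 97.2, a median distance of 64 bp, and 12 of them were narrower than 396 bp. Rps3a1 was not on this list and is not in these counts. On the list, below Rps7, Rpl27 and Rpl11, came Rps6 (138), Rpl8 (136), Rpl15 (132), Rpl17 (129), Rpl32 (122) and Rps14 (118). The 7 upstream peaks were weak, with a median of 21.8 and the highest, 26.0, at Rplp2, and every downstream peak but that at Rpl22 (20.0) was stronger than all of them. The 12 narrow peaks of this list are among only 38 narrow downstream members in all. Meis1 had a peak at 8 of the 55 genes, and in the sarcomere list at 29 of 34, beside the 38.2% of all protein-coding genes.

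**Figure D2:**
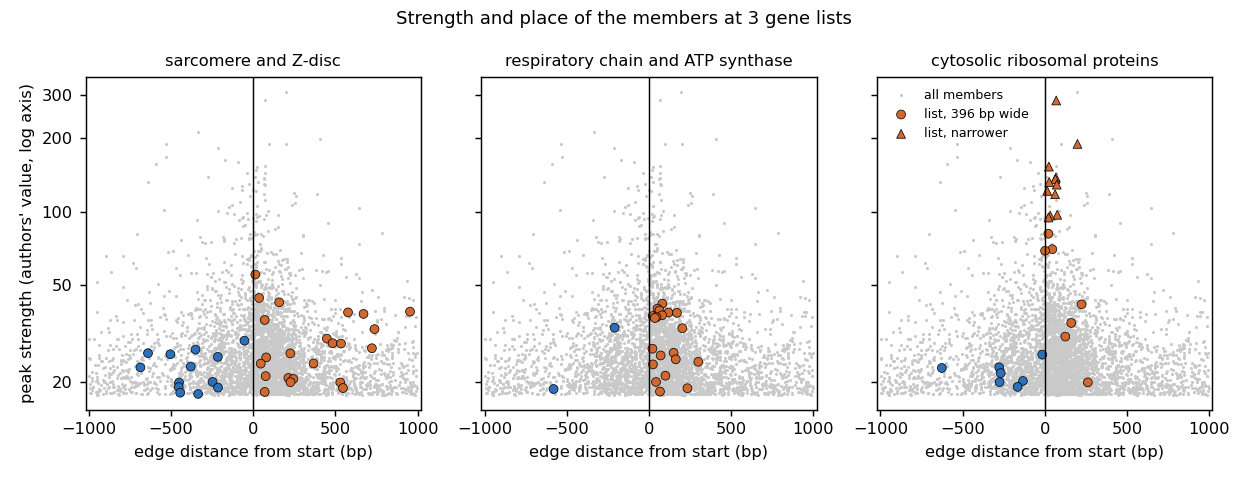
Peak strength (log axis) against the distance of the nearest peak edge from the start (bp, upstream negative) for all 4204 members (grey) and for those at sarcomere, respiratory chain and ribosomal protein genes (blue upstream, orange downstream; triangles are peaks narrower than 396 bp). Respiratory chain members gather just after the start at strengths up to 42.0, ribosomal ones at the same place reach 285, and sarcomere ones spread over both sides below 55.3.

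In other metabolic lists and that of calcium handling, downstream genes outnumbered upstream ones, as they did over all protein-coding genes (10.9% against 5.7%). Glycolysis and hypoxia genes counted 6 upstream and 14 downstream of 30, with Bnip3 the strongest (116, upstream), then Aldoa (43.3, upstream) and Pfkm, the muscle phosphofructokinase (38.4, downstream). Calcium handling and channel genes counted 4 and 10 of 29. Their strongest were Camk2d, the main cardiac calmodulin kinase (70.7 at 47 bp downstream), Atp2a2, the calcium pump of the sarcoplasmic reticulum (62.1 at 205 bp downstream), and its inhibitor Pln, with members on both sides (19.4 upstream, 50.6 downstream). Fatty acid oxidation genes counted 4 and 8 of 35 and had more genes, 13, with the peak on the start; Cpt1b, the muscle carnitine palmitoyltransferase, had 40.01 upstream.

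Among regulators of RNA and chromatin, splicing factors counted 8 upstream and 14 downstream of 36 (22.2% and 38.9%), beside 5.7% and 10.9% of all protein-coding genes. Hnrnpa2b1 had a member on each side (32.8 and 68.0), Rbm39 had 67.2 upstream, and Rbm20, the splicing factor of titin, had 62.1 upstream of a start 16317 bp from its nearest RefSeq start. Histone modifiers and remodellers counted 8 on each side of 36 (22.2% each), led by Arid1a (81.2), Ep300 (56.2) and Smarcd3 (34.9) upstream and Chd4 (52.9) and Setd2 (39.2) downstream. Cardiac transcription factors counted 6 and 11 of 32 (18.8% and 34.4%). Gata4, Mef2c and Tead1 had members on both sides. At Gata4 and Mef2c the 2 sides belonged to different start sites of the gene. The start of the upstream Gata4 member lay 26441 bp from the nearest RefSeq start. The strongest members were at Tead1 (42.9) and Tead4 (42.5), both downstream.

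Of 18 TALE homeobox genes, Meis1 (21.0 at 288 bp), Meis2 (21.4) and Pbx2 (24.8) had an upstream member, and Tgif1 (31.1), Irx3 (29.7) and Tgif2 (20.1) a downstream one. With starts within 100 bp of a RefSeq start, 1 upstream gene, Meis1, and all 3 downstream genes remained. Of 39 Hox genes only Hoxb5 (21.3) and Hoxd12 (19.6) had a member, both downstream, and Hoxb13 had none. The share of genes with a member was 33.3% for the TALE list and 5.13% for the Hox list, beside 15.1% of all protein-coding genes. All of the strengths given for these 2 lists were below the strongest 10% of the Hoxb13 list, which began at 36.3, and the median of the Hoxb13 list was 21.4.

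Cell cycle inhibitors had members at 15 of 30 genes (50%) and activators at 8 of 38 (21.1%), beside 15.1% of all protein-coding genes. Hoxb13-only peaks on the start had the same order, at 11 inhibitors and 8 activators (36.7% and 21.1%, background 16.2%). The inhibitors were Btg2 (41.8), Rbl1 (32.9), Tob1, E2f7, Fbxw7 and Gadd45b upstream, and Lats1 (35.1), Btg1 (32.5), Lats2 (28.8), Cdkn1a, Cdkn1b, E2f5, Pkmyt1, Trp53 and Wee1 downstream. The activators were Cdt1 (28.8), Cdc20 (25.5) and Ccnd2 (25.1) upstream, and E2f3 (144), Mycn (27.3), Cdc25a (27.1), Ccnd3 and Myc downstream. The difference between these lists was not tested. Of 22 calcineurin and NFAT genes, Calm3, a calmodulin gene (77.6 at 25 bp), and Dyrk1a, a kinase that opposes NFAT (49.2 at 792 bp), had an upstream member, and 7 others a downstream one. Growth signalling genes counted 3 and 9 of 30, with Akt1 and Wwtr1, also called Taz, on both sides. Proteasome genes were near the background at 3 and 3 of 31.

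Markers of other cell types of the ventricle had members too. Endothelial markers counted 8 upstream and 8 downstream of 24, against the background of 5.7% and 10.9%, with Cldn5 (40), Esam (30.9) and Icam2 (28.1) the strongest upstream and Fli1 (37.2) downstream. With starts within 100 bp of a RefSeq start, 4 upstream and 6 downstream genes were left, and the starts assigned at Icam2 and Fli1 were 5498 and 1980 bp from one. Fibroblast and matrix markers counted 2 and 7 of 24, among them Vim (29.9) and Col1a1 (27.5), and smooth muscle and pericyte markers 1 and 4 of 16. Leukocyte markers had members at 1 of 24 genes, Cd68, on both sides, neuronal markers at 2 of 24, and hepatocyte markers at 0 of 24. The leukocyte, neuronal and hepatocyte shares were all below the 15.1% of protein-coding genes with a member.

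**Figure D3:**
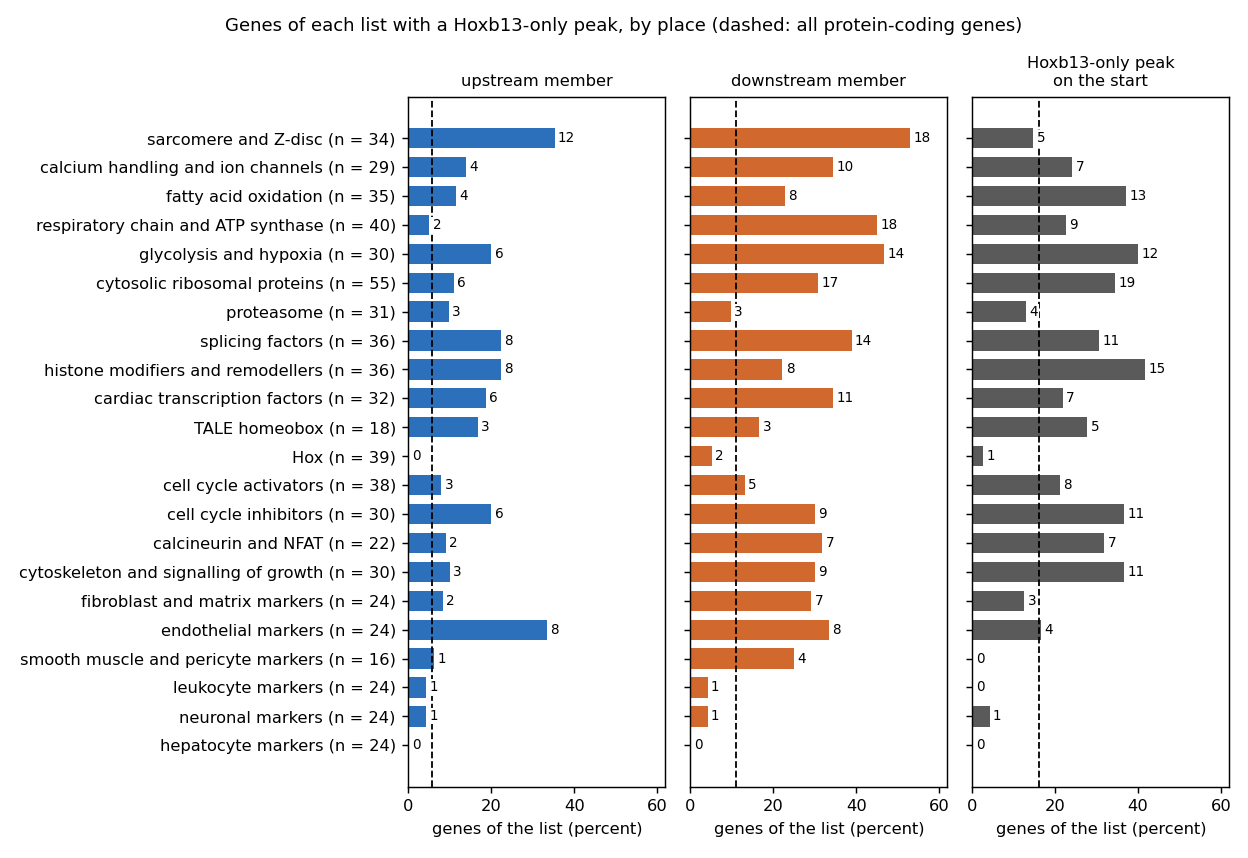
Percentage of the genes of each of 22 lists with an upstream member, a downstream member, or a Hoxb13-only peak on the start site; the number beside a bar is the number of genes, and dashed lines mark the same share over all protein-coding genes (5.7%, 10.9% and 16.2%). Sarcomere genes reach 35.3% for upstream and 52.9% for downstream members, and respiratory chain genes pass the dashed line for downstream members and on-start peaks but not for upstream members.

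Members were spread over 3492 genes, of which 1330 had an upstream and 2507 a downstream member, and 345 had both. One member only was found at 2885 genes. Asb2, a ubiquitin ligase subunit of heart and blood cells, had 7 members at several start sites, Myh6 had 6, and Zmynd8, a reader of histone marks, had 5. Ranked by the strength of the weaker side, the leading both-sided genes were Nfib, Sp1, Sertad2, Tbl1xr1, Brd2, Ppp2r5c, Actb, Nedd4, Zfp706 and the long noncoding gene Dleu2. At Nfib the strongest upstream and downstream peaks were nearly equal (54.8 and 55.5), as they were at Sp1, the factor that binds GC boxes (54.1 and 53.6). At Actb, the gene of cytoplasmic actin, the downstream peak was the stronger (85.1 against 41.2), though its assigned start lay 1222 bp from the RefSeq one. At Ppp2r5c the peaks belong to different start sites of the gene.

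**Figure D4:**
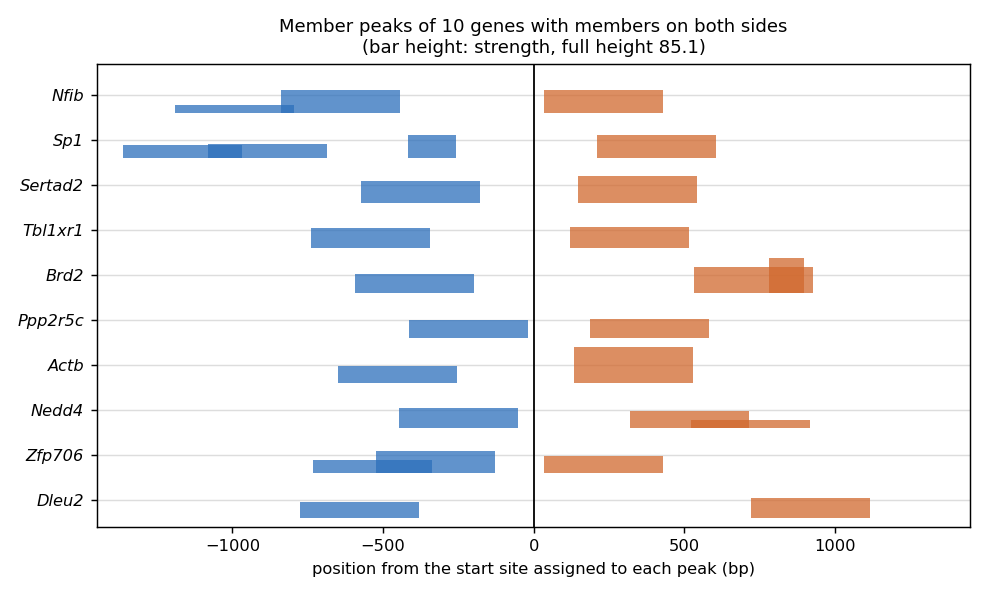
Member peaks at the 10 leading genes with members on both sides, drawn to scale along the distance from the start assigned to each peak (bp), with bar height proportional to peak strength (full height 85.1, Actb downstream). By the rule for members no bar can cross the start. Nfib, Sp1, Brd2, Nedd4 and Zfp706 have more than 1 bar on a side.

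A Hoxb13 peak on a start site, with or without Meis1, was present at 3940 of 21883 protein-coding genes (18%). It was present at 21.5% of the genes with an upstream member (286 of 1330; 19.3 to 23.8) and at 19.8% of those with a downstream member (497 of 2507; 18.3 to 21.4). Where it was present, the member was the weaker of the pair in 58.1% of 313 upstream members (52.5 to 63.7) and 62.01% of 537 downstream members (57.8 to 66.1). Members at genes with an on-start peak stood farther from the start, at a median of 273 bp against 203 bp upstream and 191 bp against 148.5 bp downstream. Elsewhere at the gene Meis1 had a peak at 50.2% of upstream and 49.4% of downstream genes. Both shares were above the 41.0% of genes with an on-start Hoxb13-only peak and the 38.2% of all protein-coding genes, and below the 54.8% of all genes in the Hoxb13 list. That last share includes genes whose Hoxb13 peaks overlap Meis1. The rule left such peaks out of the members, so this last difference is partly set by the rule.

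The start site of another gene on the opposite strand, within 1 kb of the peak's summit, was found for 13.8% of upstream members (12.1 to 15.7), 15.6% of downstream members (14.3 to 17.0) and 20.2% of on-start peaks (18.98 to 21.5). The opposite start lay under the peak itself in 39 of 202 upstream members (19.3%) and 32 of 428 downstream members (7.48%). The 5 strongest such upstream members were at Mir3960 (163), Klf7 (132), Cnot1 (110), Sphk2 (106) and Gm13375 (92.3). Their opposite starts were those of Gm33457, Gm35880, 4930513N10Rik, Rpl18 and Arhgap21. At Sphk2, a sphingosine kinase gene, the summit was 137 bp from the start of Rpl18, a ribosomal protein gene, and 206 bp from its own. Among downstream members, Rnps1 (149) was paired with D330041H03Rik, Rpl15 (132) with Nkiras1 and Trappc4 (118) with Rps25. Rps18 (96.4) was paired with Vps52, and Rpl7a (94.7) with Med22.

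The members' promoters were rich in GC and CpG. In the RefSeq windows of their assigned starts, from 250 bases before to 50 after, the median GC content was 65.3% upstream (889 windows) and 62.7% downstream (1815), beside 63.3% for on-start peaks (2757) and 52.7% for all 32851 windows. The ratio of observed to expected CpG was 0.825, 0.802 and 0.811 in the same order, against 0.384 for all windows and 0.567 for protein-coding ones. Sarcomere promoters had lower ratios, as did those of some other lists. The windows of sarcomere genes with a member had a median ratio of 0.237 (17 windows), close to the 0.239 of all windows of that list. Respiratory chain windows with a member had 0.878 (15) and ribosomal ones 0.685 (13), beside 0.844 and 0.865 for all windows of those lists. Member windows had 0.449 in the calcium handling list (8), 0.480 in the endothelial (8), 0.502 in the fibroblast (4) and 0.344 in the smooth muscle list (3).

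The GC box was the motif most frequent in the members' windows. Among the 214 windows that held the summit of an upstream member, 81.3% had a GC box (GGGCGG; 75.4 to 86.3), against 35.7% of all windows and 46.2% of protein-coding ones. A CCAAT box stood in 44.9% (38.1 to 51.8), against 37.4% of all and 38.2% of protein-coding windows, and an ETS site (CCGGAAG) in 14.5% (10.1 to 19.9), against 8.86% and 11.6%. For the ETS site the protein-coding share lies within the interval, and for the CCAAT box it lies at its lower bound. In the 889 windows at the assigned upstream starts, most without the summit, the CCAAT share was 35.9%, below that of all windows. The 1470 windows that held the summit of an on-start peak had a GC box in 75.6% and a CCAAT box in 45.2%. At least 3 CCAAT boxes stood in 29 of the 214 windows (13.6%; 9.27 to 18.9), against 3.37% of all windows and 3.92% of protein-coding ones. This count was made after the Arntl sequence had been seen and includes it. At the assigned starts the share was 6.30% upstream (56 of 889), 3.75% downstream (68 of 1815) and 8.85% for on-start peaks. The whole Arntl window holds 8, and 7 or more were found in 2 of the 214 windows and in 4 of all 32851. The E-box (CACGTG) was found in 8.41% (5.06 to 13.0), against 7.15% of all and 7.84% of protein-coding windows. The cAMP response element (TGACGTCA) was in 4.21% (1.94 to 7.83) against 1.79% and 2.23%, and the NRF1 site (GCATGCGC) in 4.21% (1.94 to 7.83) against 2.71% and 3.51%. For these 3 motifs the protein-coding share lies within the interval. The TATA box (TATAAA) was in 5.61% (2.93 to 9.59) against 13.6% and 12.6%. All motifs were searched on both strands, and no account was taken of the windows' GC content.

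Of the motifs of the Hoxb13 and Meis families, TTTATNG was in 12 of the 214 windows (5.61%; 2.93 to 9.59) against 10.9% of all windows, and the Meis core TGACAG in 28 (13.1%; 8.87 to 18.4) against 19.2%, so both were less frequent than in all windows. The share of TTTATNG in protein-coding windows, 9.58%, lies within the interval. CCAATAAA, a Hoxb13 site that contains a CCAAT box, was in 1 window (0.467%; 0.0118 to 2.58) against 1.12%, and TCGTAAA, which has a CpG, was in 4 (1.87%; 0.512 to 4.72) against 0.597%. Both intervals include the share of all windows. Of the downstream members only 37 windows held the summit, too few to compare: 8 had a CCAAT box (21.6%; 9.83 to 38.2), 10 an ETS site (27.0%; 13.8 to 44.1) and 0 CCAATAAA, which allows a share of up to 9.49%. A match of letters is not a bound site, and the absence of these letters from a window says nothing of the factor.

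**Figure D5:**
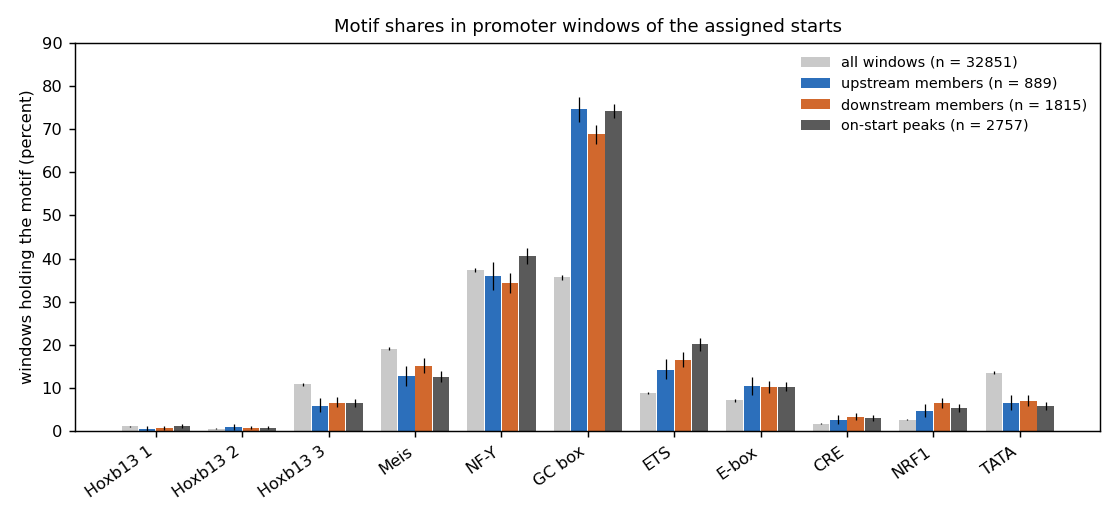
Percentage of RefSeq promoter windows at the assigned starts of upstream members, downstream members and on-start peaks, and of all windows, that hold each motif on either strand (bars; lines are exact binomial 95% intervals; the bars labelled Hoxb13 1 are for CCAATAAA, those labelled Hoxb13 2 for TCGTAAA and those labelled Hoxb13 3 for TTTATNG). The GC box has the largest gap, at 74.6% upstream and 68.8% downstream against 35.7% of all windows, and the TATA box, the Meis core and the motif labelled Hoxb13 3 are below all windows in each group.

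Members were scarce on chromosome X, as were peaks of the whole list. Chromosome X held 45 of the 4204 members (1.07%; 0.782 to 1.43) and 0.915% of all Hoxb13 peaks, although 4.41% of the protein-coding genes lie there. The share was 0.675% in the Meis1 list. The cause was not tested, and the sex of the animals was not used here. Klhl15 (139) was the strongest X-linked upstream member, and Cox7b (24.8), a subunit of cytochrome c oxidase, was an X-linked member of the respiratory list.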

How the data were processed

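The files used were 2 annotated peak lists, 1 each for Meis1 and Hoxb13, deposited by the authors. The submitters' processing notes name the mm10 build and, with no role or order, ChIPseeker, deepTools 1.6, Picard and Bowtie2 2.2.3. Which program called the peaks, at what threshold, and how 3 libraries were joined is not given in the sources used here. Per the file headers, the signal value (peak strength here), the score and the other value of each peak (the summit offset) have only column numbers; they were read by their place in the narrowPeak layout. The deposited signal has no stated unit and served only to rank and describe peaks within the Hoxb13 list, and the deposited score was not used further.

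A peak was a member if its class was promoter, its deposited distance to the assigned start (another of the authors' columns) was not 0, and it shared no base with a Meis1 peak (minimum overlap 1 bp). The distance was checked to run from the start to the nearest peak edge. Side is the sign of that distance. Entrez numbers were matched to RefSeq for 99.9% of the 3492 genes. Motifs (11) were searched on both strands in 32851 RefSeq promoter windows of GRCm38.p6, and a window belonged to a start within 50 bp. Shares have exact binomial 95% intervals, and medians have order-statistic intervals. With 1 pooled list per factor there was no replicate test and no p-value. The input libraries were not analysed here.

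The members, the 22 gene lists (671 entries for 662 genes, each matched) and the alternatives were chosen with earlier results of these data known. Genes were picked for naming by set rules, though not every gene so picked is named in the text. The rules took, per side, the 10 strongest members and the 3 strongest per list. They also took the 10 leading both-sided genes, the 5 genes with most members and the 5 strongest with an opposite start. Those 5 with a summit in a window and those at the limits of the rule for members were taken too. Further genes were named after their values were seen. The overlap, distance and interval steps were tested on simulated data. Python 3.11.15, pandas 2.3.3, NumPy 2.4.6 and SciPy 1.17.1 were used.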

Additional observations from a re-analysis of the deposited data

How the results depend on the processing

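Other settings gave 186 values, from 9 settings for the members and, for the motifs, also other windows or 1 strand. Of these, 153 stayed within their interval or within 1.5 times the count, and 33 moved further. Some of the 153 could not move by construction, as measuring from the summit changes only the distances. Leaving out members with a Meis1 peak within 1 kb gave a Meis1 peak elsewhere at 45.5% of upstream and 44.2% of downstream genes, and leaving out only peaks with summits at most 100 bp from a Meis1 summit gave 53.7% upstream. By construction these rules change that share. Peaks at or above the list's median strength left 2739 members, median strengths of 28.0 upstream and 27.9 downstream, a downstream distance of 139 bp and 173 both-sided genes, since fewer peaks remain. With peaks that overlap no other Hoxb13 peak, 16.3% of upstream and 11.6% of downstream genes had an on-start peak. The strongest member per gene gave an upstream share of 33.1%, distances of 200 and 142 bp, strengths of 25.1 and 24.7, and by construction 0 both-sided genes. Within 500 bp the distances were 174 and 128 bp, the downstream strength 24.4 and the on-start shares 19.3% and 18.1%. Measured from the summit, the distances were 412 and 353 bp. With windows that only overlap the upstream peak the CCAAT share was 36.6%, below the 37.4% of all windows, and on the gene's strand alone it was 28.0% and that of the GC box 59.3%. For causes not stated here, the cause was not tested.

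Among the lists, the sarcomere count fell to 11 downstream genes with no Meis1 peak within 1 kb (background 9.84%). Upstream the sarcomere count fell to 6 among the stronger peaks (background 3.86%) and to 5 with 1 peak per gene (background 4.92%). With 1 peak per gene a both-sided gene keeps only 1 side by construction. The ribosomal upstream count fell from 6 to 3 among the stronger peaks, and the respiratory upstream count from 2 to 1 under several settings. No paired analysis was possible because the lists carry no value per library, and for the same reason no library could be left out. The peaks' number and strength depend on a depth that is unknown. The alternative with RefSeq starts was chosen after seeing the data.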

Other observations

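MicroRNA genes carried 22 upstream and 27 downstream members, at 44 of 1228 such genes (3.58%), beside 15.1% of protein-coding genes. For them the assigned start is the first base of the annotated precursor, not the start of the primary transcript, so the side has another meaning than at other genes. All 4 precursors of the muscle microRNAs of the miR-1 and miR-133a families had members: Mir1a-1 at 683 bp downstream (22.0), Mir1a-2 at 743 bp upstream (31.5), Mir133a-1 at 350 and 940 bp downstream (18.3 and 26.3) and Mir133a-2 at 994 bp upstream (19.8). Mir145a, of smooth muscle, had 43.6 at 971 bp downstream, and Mir126a, of endothelium, 21.9 at 553 bp upstream. Of 37 downstream members wholly past the transcript end, 32 were at microRNA or small nucleolar RNA genes. These genes were named after their values were seen.

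Both RNase P RNA members were strong: Rprl3 had 308 and Rprl2 119 at 249 bp. Of the 38 narrow downstream members, 25 lay within 100 bp of the start.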
